A study of Mus musculus with 2 samples.

Results

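The cells described here are 53 phagocytes of the crushed mouse optic nerve that carried much Lpl, the mRNA of lipoprotein lipase, and were sequenced deeply. They were chosen by 3 conditions: the deposited table labels the cell as injured, it holds at least 5000 unique molecular identifiers (UMIs, tags that count each captured RNA molecule once), and its Lpl level is at least 500 CPM, the cell's UMIs scaled to the same total in every cell. The injured library held 727 cells, of which 144 had at least 5000 UMIs. The 53 Lpl-high cells were 7.29% of the injured cells (95% exact Clopper-Pearson interval 5.51 to 9.43) and 36.8% of the deep ones (28.9 to 45.2), and they held 35.8% of the injured UMIs. They are compared with the other 91 deep injured cells, called Lpl-low here. The whole series holds 778 cells.

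The injured library came from wildtype mice of the 129S1/SvlmJ strain, of both sexes, whose optic nerve was crushed at 8 weeks of age and taken 2 weeks later, at 10 weeks. The second library came from uninjured nerves of mice of the same strain, genotype and age, and 1 label field of both libraries gives P56 instead. Its 51 cells included 4 of at least 5000 UMIs, and those 4 had 0 Lpl UMIs, so the comparison below stays within the injured library. Each condition is 1 library, both compared groups are cells of the injured one, and cells are not replicates, so no test was made, and every interval is a 95% interval that covers counting error only.

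Lipoprotein lipase is secreted and cuts the triglycerides of lipoprotein particles into fatty acids that cells can take up. In the nervous system it is best known from microglia, the resident phagocytes of nervous tissue, where its mRNA is part of the programme described around plaques and in damaged white matter. After an optic nerve crush the axons beyond the injury degenerate, and phagocytes take up the lipid-rich myelin that is left. Monocyte-derived macrophages can enter the nerve from blood, and border-associated macrophages live in the sheaths and around vessels.

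Lpl chose the cells and is given as a description. Its level ran from 501 to 6643 CPM with a median of 1738 CPM in the Lpl-high cells, and from 0 to 498 CPM with a median of 61.2 CPM in the Lpl-low cells, 38 of which had no Lpl UMI. The 4 cells nearest below the limit had 435, 453, 463 and 498 CPM, and the 4 nearest above had 501, 533, 568 and 789 CPM. The Lpl gene lies at chr8:68880491-68907448 (GENCODE vM21, mm10). Lpl-high cells were also deeper, with 5285 to 53972 UMIs and a median of 25349, against 5329 to 45339 and a median of 17619. The median number of genes was 4022 against 3415, and mitochondrial genes took a median of 2.33% of UMIs against 2.38%. Of the deep cells with 5000 to 15000 UMIs 20% (9 of 45, interval 9.58 to 34.6) were Lpl-high, and of those over 15000 UMIs 44.4% (44 of 99, 34.5 to 54.8). Depth thus moves with the division, and values of both depth ranges are given beside many of the results below.

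**Figure D1:**
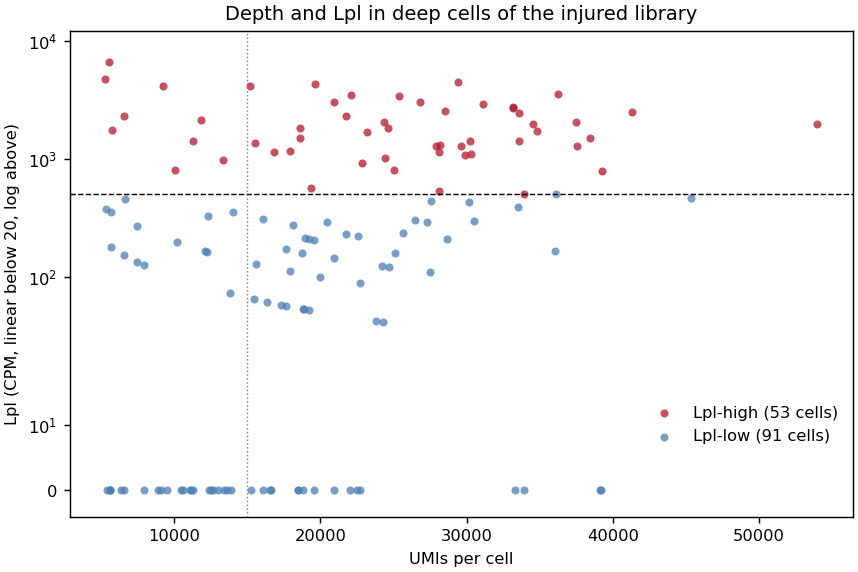
UMIs per cell (horizontal) and Lpl level in CPM (vertical, linear below 20 and logarithmic above) of the 144 deep cells of the injured library, 1 point per cell. The dashed line is the 500 CPM limit and the dotted line is at 15000 UMIs; 9 Lpl-high cells lie to the left of the dotted line and 44 to the right.

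The label phagocyte was checked on C1qa, C1qb and C1qc (complement component chains), Fcer1g and Tyrobp (signalling adaptors), Csf1r (the receptor of the growth factor that keeps these cells alive), Cd68 (a lysosomal protein) and Lyz2 (lysozyme). All 53 Lpl-high cells had at least 1 UMI of each of the 8 genes, and so did 84 of the 91 Lpl-low cells. C1qa was at 8981 CPM in the Lpl-high and 6927 CPM in the Lpl-low cells, and Csf1r at 843 and 792 CPM. Neither passed the limits used below.

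Origin was read from genes that separate microglia from other macrophages. At least 1 UMI of P2ry12, Tmem119, Siglech or Sall1, which mark microglia, was found in 45 of 53 Lpl-high cells (84.9%, interval 72.4 to 93.3) and in 51 of 91 Lpl-low cells (56%, 45.2 to 66.4). When all cells were thinned to 5000 UMIs, 39.6% (26.5 to 54) and 34.1% (24.5 to 44.7) held one. The thinned shares lay closer together than the unthinned ones, and their difference was not tested. Of Mrc1, Cd163, F13a1 and Cbr2, which mark border-associated macrophages, and Ccr2, Ly6c2 and Plac8, which mark monocytes, the Lpl-high cells held 0 UMIs in all; the exact interval for 0 of 53 cells reaches 6.72%, which limits the share of cells with a UMI and not of cells that express these genes. Of the Lpl-low cells 19 of 91 held at least 1 (20.9%, 13.1 to 30.7), and 13 of 91 after thinning. Summed over the whole list of 15 border-associated macrophage genes, the level had a median of 1091 CPM (0 to 3208) in the Lpl-high and 1075 CPM (0 to 5740) in the Lpl-low cells, and 27 of the 53 lay above the Lpl-low median.

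Genes of other cell types were read as well, since a droplet can hold more than 1 cell. Both groups had 0 UMIs of the neuronal genes Snap25, Syt1, Rbfox3 and Nefl, of the endothelial genes Cldn5, Cdh5 and Tek, and of the neutrophil genes S100a9, Retnlg and Ly6g. Of 10 T cell genes 9 were at 0 in the Lpl-high cells, and none of these cells had UMIs of at least 2 T cell genes, against 3 Lpl-low cells. Over 13 myelin and oligodendrocyte genes the summed level per Lpl-high cell ran from 613 to 8741 CPM with a median of 2492. In the Lpl-low cells it ran from 265 to 17827 CPM with a median of 2176. The ranges overlapped, and 37 of the 53 Lpl-high cells lay above the Lpl-low median.

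Summed levels of the astrocyte, Schwann cell and endothelial lists had higher medians in the Lpl-high cells, with overlapping ranges. That of the neutrophil list had a lower one. Over 6 Schwann cell genes the median was 352 CPM (0 to 876) against 251 CPM (0 to 2427). Of the 53 Lpl-high cells 38 lay above this Lpl-low median, and 3 of 53 and 21 of 91 cells were at 0. Over 9 astrocyte genes the median was 160.6 CPM (0 to 1616) against 51.1 CPM (0 to 1340), and 40 of the 53 Lpl-high cells lay above the Lpl-low median. Slc1a3, the glutamate transporter of astrocytes, was called higher, at 196 against 79.2 CPM, and Gfap, their filament protein, lower, with 8 against 23 UMIs. Over 8 endothelial genes the median was 91.9 CPM (0 to 599) against 0 CPM (0 to 355), and 42 of the 53 lay above the Lpl-low median. Of the 158 endothelial UMIs of the Lpl-high cells, 153 were Flt1. Over 9 neutrophil genes the median was 99.2 CPM (0 to 458) against 125.8 CPM (0 to 569), with 8 of 53 and 20 of 91 cells at 0. The part of these other cell types in the values below was not tested. No doublet caller was run, and the part of doublets in the values below was not tested either.

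Of 31053 gene rows, 8625 had a UMI in 10% or more of either group's cells and were compared without Lpl. Some of them, such as Ch25h, Adamts1, Ciita, Ccl2 and Ccr2, reached 10% only in the group where they were higher. For such genes the filter favoured the direction, and the list counts below include them. UMIs were summed over each group, and a gene was called when its ratio, with 10 CPM added to both levels, was at least 1.5 in 1 direction both for summed UMIs and for the mean over cells. By this rule of size 351 genes, 4.07% of those compared, were called higher in the Lpl-high cells, and 414 genes, 4.8%, were called lower. Of these, 124 and 96 differed at least 2-fold on the same scale. Over all genes compared, the log2 ratio had a median of -0.01. The same fold was passed in both depth ranges by 198 of the 351 genes and by 208 of the 414. The lower range has 9 Lpl-high cells with 78842 UMIs, and the upper one 44 with 1245590 UMIs. Of the 20 genes named as highest 17 passed the fold in the lower depth range and 20 in the upper one. Of the 20 named as lowest, 20 passed in the lower range and 19 in the upper one. All these genes were chosen on the same cells pooled, so passing in a range is no independent check. The upper range held most Lpl-high UMIs, so the choice favoured passing there. In the lower range alone 1919 genes were called higher and 2215 lower, and the share of all genes passing was not compared.

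The genes highest in the Lpl-high cells were led by secreted signals of inflammation. Tnf, a cytokine that starts inflammatory responses, was at 373 CPM (341 to 407) in the Lpl-high and 15.97 CPM (10.4 to 23.4) in the Lpl-low cells, 23.4-fold higher (15.8 to 36.1). It lies at chr17:35199381-35202007. Over cells it ran from 0 to 2243 CPM in the Lpl-high cells and from 0 to 390.2 CPM in the Lpl-low cells, with a median of 0 in both. Tnf UMIs were found in 25 of 53 and 14 of 91 cells, and after thinning in 17 and 6. Most cells of both groups thus stood at 0, and the highest Lpl-high cells lay above all Lpl-low cells.

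Cxcl1 and Cxcl2 encode chemokines that draw neutrophils. Cxcl1 was at 517 against 30.1 CPM, 17.2-fold higher (12.9 to 23.5), and was seen in 24 of 53 and 11 of 91 cells. Cxcl2 was at 2059 against 371 CPM, 5.54-fold higher (5.07 to 6.06), with a median of 59.0 and 0 CPM and a highest cell of 11840.2 and 18532 CPM. The highest Cxcl2 level of all was therefore in an Lpl-low cell, and 3 cells held 77.0% of the Lpl-low Cxcl2 UMIs. Tnfsf9, the 4-1BB ligand that costimulates lymphocytes, was 11.3-fold higher (8.42 to 15.4), at 347 against 30.7 CPM.

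Of 12 compared chemokine genes 8 were called higher and 2 lower, with a median log2 ratio of 1.29 beside -0.01 over all genes. The higher ones were Cxcl1, Cxcl2, Cxcl10, Cxcl14, Ccl3, Ccl4, Ccl6 and Pf4, and the lower ones Ccl2 and Ccl12. Cxcl10, which interferon induces and which draws T cells, was at 219 against 30.7 CPM, and Ccl6 at 507 against 131 CPM. Ccl4, a chemokine that draws monocytes and T cells, was at 770.1 against 294 CPM. Ccl2, the main attractant of Ccr2-bearing monocytes, went the other way: its UMIs numbered 0 in the Lpl-high cells and 228 in the Lpl-low cells, at least 61.8-fold lower when 3 counts over the group are put in place of 0. The Lpl-low Ccl2 UMIs lay in 17 of 91 cells, and 3 cells held 72.8% of them.

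Of 14 compared inflammatory cytokines and their regulators 8 were called higher and 1 lower, with a median log2 ratio of 0.77. Besides Tnf, the higher ones were Il1a and Il1b (the 2 forms of interleukin-1), Ptgs2 (the enzyme that starts prostaglandin synthesis), Nlrp3 (an inflammasome sensor) and Nfkbia, Nfkbiz and Tnfaip3, which are themselves NF-kappa B targets that act back on that pathway. Il18 was the lower one. Il1a was at 281 against 65.1 CPM, and Nfkbia at 1888 against 598 CPM. Il1b was at 1463 against 761 CPM, with a median of 177 CPM over the Lpl-high and 0 CPM over the Lpl-low cells.

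For these signals the depth ranges gave different values. Over 15000 UMIs the median of the cytokine list was 1.03, and at 5000 to 15000 UMIs, over the same 14 genes, it was -0.48. Cxcl2 had a log2 ratio of 3.75 in the deeper range and -0.93 in the shallower one, Nfkbia 2.06 and -0.81, Nfkbiz 1.70 and -0.76, Nlrp3 1.89 and -0.68, and Ptgs2 0.92 and -2.14. Tnf, Cxcl1, Tnfsf9 and Il1a kept a positive ratio in the shallower range, at 0.91, 1.88, 3.60 and 2.16. The chemokine median, over the same 12 genes, was 1.55 and 0.76. In the shallower range Cxcl2 UMIs were found in 4 of 9 Lpl-high and 6 of 36 Lpl-low cells, and 2 of these Lpl-low cells held 366 of the 411 Lpl-low Cxcl2 UMIs. Without those 2 cells, a choice made after seeing the data, the shallower ratio of Cxcl2 was 2.07, while Nfkbia, Nfkbiz, Nlrp3 and Ptgs2 were at -0.38, -0.55, -0.55 and -2.19. The Lpl-low cells without a Lyz2 UMI all lay in this range, and their Nfkbia levels were 4256, 4261, 928 and 6633 CPM. Their part in these ratios was not tested. The negative Cxcl2 ratio thus rests on 2 cells that were picked for their Cxcl2 UMIs, so leaving them out had to raise it. The Lpl-high side of the ratio of 2.07 is itself 49 UMIs in 4 of 9 cells.

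Promoters of genes in this group are shown because 8 of 12 chemokine and 8 of 14 cytokine genes were called higher, although Cxcl2 and Nfkbia had negative ratios in the shallower range. As background, NF-kappa B is the transcription factor family through which many inflammatory genes are induced. The 10-base NF-kappa B consensus was searched on both strands in the RefSeq promoter windows of the GRCm38.p6 build, which run from 250 bases before to 50 bases after the gene start. It was found in 5.55% of the 27025 promoters and in 6.86% of those of compared genes. Among all genes called higher the share was 11.7%, and among those called lower 6.81%. Of the chemokine genes called higher 7 had a promoter entry and 3 held a match; of the cytokine genes called higher 7 had an entry and Nfkbia and Tnfaip3 held a match. Printed are the 120 bases before the start of 4 of these 5 genes, 5′ to 3′ on the gene's strand, with the match in capitals.
Cxcl1 (chr5:90891125-90891244, plus strand): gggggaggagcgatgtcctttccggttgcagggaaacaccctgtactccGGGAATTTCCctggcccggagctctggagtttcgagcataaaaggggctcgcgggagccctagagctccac
Cxcl2 (chr5:90903779-90903898, plus strand): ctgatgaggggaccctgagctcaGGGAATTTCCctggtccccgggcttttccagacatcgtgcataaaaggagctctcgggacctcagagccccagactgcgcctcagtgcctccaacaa
Cxcl10 (chr5:92348890-92349009, minus strand): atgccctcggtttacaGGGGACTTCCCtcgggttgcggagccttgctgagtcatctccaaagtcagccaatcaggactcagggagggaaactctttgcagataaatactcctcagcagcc
Nfkbia (chr12:55492648-55492767, minus strand): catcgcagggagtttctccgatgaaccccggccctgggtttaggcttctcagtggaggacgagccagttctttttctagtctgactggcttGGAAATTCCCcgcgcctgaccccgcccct
The capitals in Cxcl10 mark 2 overlapping matches. Cxcl1 and Cxcl2 carry the same 10 letters, 62 to 71 and 88 to 97 bases before the start. A match is a description of these letters and not a measured binding site.

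Several membrane and intracellular genes were higher in a way that reached most cells. Ank, which encodes a pyrophosphate transporter, was at 303 against 54.0 CPM, 5.60-fold higher (4.44 to 7.14), and was seen in 50 of 53 and 47 of 91 cells (36 and 15 after thinning). Its median over cells was 187 against 27.7 CPM. Gpr84, a receptor for medium-chain fatty acids on activated phagocytes, was 10.4-fold higher (7.17 to 15.7), at 199 against 19.0 CPM. These 2 genes had log2 ratios of 2.72 and 4.28 at 5000 to 15000 UMIs and 2.29 and 2.63 above.

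Cd34, a surface sialomucin, was at 244 against 60.2 CPM. Flt1, a receptor of vascular endothelial growth factor, was at 116 against 22.1 CPM and was seen in 42 of 53 and 22 of 91 cells, while the endothelial genes Cldn5, Cdh5 and Tek were at 0. Cspg4, the NG2 proteoglycan known from oligodendrocyte precursors and pericytes, was at 132 against 32.5 CPM and was seen in 44 of 53 and 22 of 91 cells, while the precursor genes Vcan, Lhfpl3, Tnr and C1ql1 were at 0 in the Lpl-high cells. Over all 8 precursor genes the summed level had a median of 107.5 CPM (0 to 1197) in the Lpl-high and 0 CPM (0 to 1126) in the Lpl-low cells, 44 of the 53 lay above that median, and 175 of the 180 Lpl-high UMIs were Cspg4. The defining genes Pdgfra and Olig2 had 1 and 2 UMIs in the Lpl-high cells and 0 in the Lpl-low cells, and the part of precursor cells in the Cspg4 level was not tested. Bcl2a1a, an anti-apoptotic gene, was at 271 against 61.4 CPM, but it has near-identical copies between which reads can be split.

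For some other genes named as highest, few cells held most UMIs. Cxcl13, a chemokine that draws B cells, was at 560.2 against 126 CPM, and 3 cells held 64.8% of its Lpl-high UMIs. Postn, a matrix protein, was at 162 against 24.6 CPM, with 70.6% of the Lpl-high UMIs in 3 cells. Icam1 (an adhesion molecule), Cd72, Gem, Phlda1 and Sdc4 (a heparan sulphate proteoglycan) completed the 20 highest, with log2 ratios of 2.06, 1.93, 2.37, 1.72 and 1.71. Phlda1 and Sdc4 had ratios of -0.68 and -0.16 at 5000 to 15000 UMIs.

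**Figure D2:**
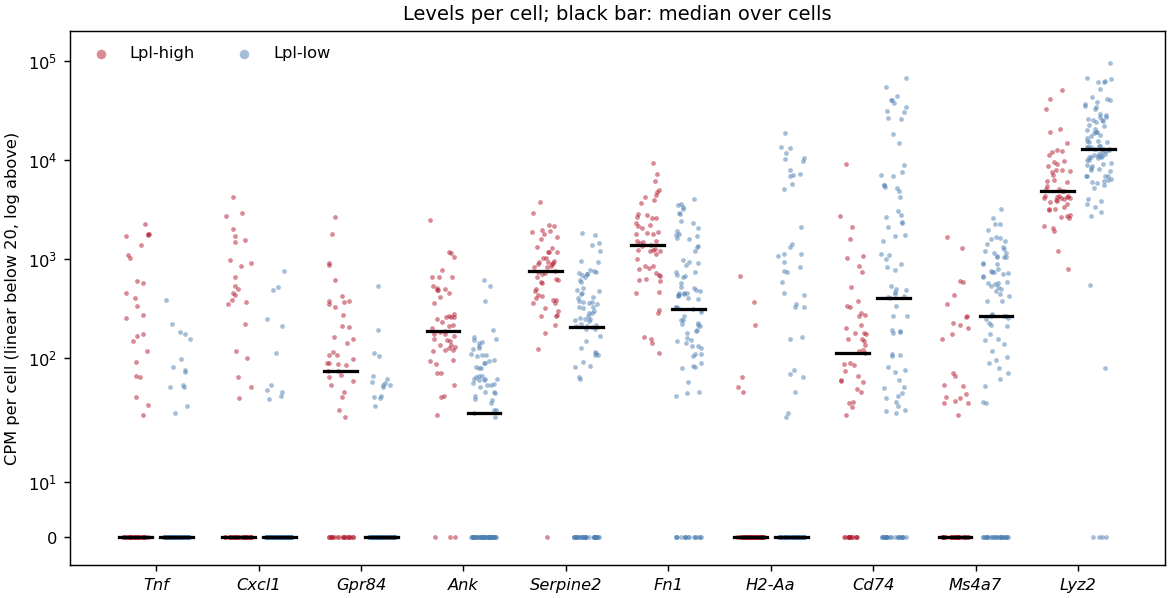
CPM per cell (vertical, linear below 20 and logarithmic above) of 10 genes in the 53 Lpl-high and 91 Lpl-low cells, 1 point per cell with horizontal jitter; black bars are medians. Tnf and Cxcl1 are at 0 in most cells of both groups, while Ank has a median of 187 against 27.7 CPM and Lyz2 one of 4879.7 against 12813 CPM.

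The genes lowest in the Lpl-high cells were those of antigen presentation by MHC class II, which displays peptides to helper T cells. Of 8 compared genes 7 were called lower and none higher, with a median log2 ratio of -2.51. H2-Aa and H2-Eb1 encode chains of the class II molecules. H2-Aa was at 19.6 CPM (12.8 to 28.8) against 1118 CPM (1067 to 1171), 57.0-fold lower (38.7 to 87.4). H2-Eb1 was 71.7-fold lower (48.8 to 110.0) and H2-Ab1 17.7-fold lower (14.5 to 21.8). Cd74, the invariant chain that escorts them, was at 343 against 4482 CPM. Ciita, the coactivator that switches class II genes on, had 0 UMIs in the Lpl-high and 25 in the Lpl-low cells, and H2-DMa, which loads peptides, was not called at 124 against 172 CPM.

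The class II difference lay in a minority of the Lpl-low cells. H2-Aa was seen in 6 of 53 Lpl-high and 37 of 91 Lpl-low cells, and after thinning in 2 and 34. H2-Aa, H2-Ab1, H2-Eb1 and Cd74 together took over 3% of the UMIs in 13 Lpl-low cells and in no Lpl-high cell, and over 0.4% in 30 and 1. Their summed level had a median of 177 CPM and a highest value of 12241 CPM in the Lpl-high cells, against a median of 489 CPM and a highest value of 128074 CPM. Without the cells over 3%, a choice made after seeing the data, the median log2 ratio of the list was -1.44. By depth, over the same 8 genes, the list's median was -2.91 at 5000 to 15000 UMIs and -1.65 above. In the 10 MHC class I genes, which present peptides on nearly all cells, none was called, and their median was -0.29.

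Class II promoters are known for the Y box, an element that the factor NF-Y binds, and are shown because this list differed most. The letters CTGATTGG were found on either strand in 4.31% of the same promoters and in 5.72% of those of compared genes. Among all genes called higher the share was 4.55%, and among those called lower 6.50%. The letters were found in 3 of the 4 class II genes called lower that had an entry, H2-Aa, H2-Eb1 and H2-Oa. Printed are the 120 bases before the start of 2 of them, with the Y box in capitals.
H2-Aa (chr17:34287824-34287943, minus strand): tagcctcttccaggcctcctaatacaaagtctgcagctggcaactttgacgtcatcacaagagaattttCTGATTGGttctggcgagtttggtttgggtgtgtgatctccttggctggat
H2-Eb1 (chr17:34305747-34305866, plus strand): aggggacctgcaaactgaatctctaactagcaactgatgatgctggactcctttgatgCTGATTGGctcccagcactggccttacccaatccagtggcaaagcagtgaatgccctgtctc
The match lies 44 to 51 bases before the start in H2-Aa and 55 to 62 bases before it in H2-Eb1. Among the genes printed, the promoter of H2-Aa also held an NF-kappa B match and that of Cxcl10 a Y box.

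Other genes named as lowest are known from macrophages and monocytes. Lyz2 was at 8063 against 22067 CPM, 2.74-fold lower (2.68 to 2.80), yet was seen in all 53 Lpl-high and 87 of 91 Lpl-low cells. Its median over cells was 4879.7 against 12813 CPM, with overlapping ranges. Ms4a7, a membrane protein of macrophages, was at 125 against 597 CPM, 4.76-fold lower (4.04 to 5.65). Ms4a7 was seen in 24 of 53 and 66 of 91 cells.

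Ahnak, a large scaffold protein, was at 3.78 against 122 CPM, and Ifitm3, an interferon-induced antiviral protein, at 21.9 against 144 CPM. Pla2g7, which encodes a lipoprotein-bound phospholipase, was at 120.1 against 356 CPM, and the transcription factor Klf4 at 74.0 against 224 CPM. The 20 lowest also held Fbxo32, Cd300a, Chst2, Hspa1a, Metrnl, Pltp, Ms4a6c, Cxcr4 and Mgst1, with log2 ratios from -1.62 to -1.12. Hspa1a and Hspa1b, with log2 ratios of -1.37 and -2.94, are near-identical heat shock genes whose reads can be split, and over 15000 UMIs Hspa1a had a ratio of -0.52. The iron storage gene Ftl1 was at 7044 against 12306 CPM.

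Of 18 compared genes of homeostatic microglia 7 were called higher and none lower, with a median log2 ratio of 0.58. Among the higher ones were Sparc and Olfml3 (secreted proteins), Mef2c and Sall1 (transcription factors) and the receptors P2ry12 and Gpr34. Sparc was at 1702 against 632 CPM and Olfml3 at 267 against 105 CPM. The summed level of the list ran from 6431 to 24596 CPM over the Lpl-high cells with a median of 12357, and 46 of the 53 lay above the Lpl-low median of 7627 CPM. P2ry12 was at 58.1 against 25.2 CPM, but after thinning it was seen in 5 of 53 and 17 of 91 cells, so that its order depends on the measure. With all cells thinned to 5000 UMIs the list's median was 0.37, and P2ry12 and Sall1 had log2 ratios of -0.18 and -0.30. Tmem119 did not differ by the rule, at 52.1 against 48.5 CPM, a ratio of 1.07 (0.766 to 1.502).

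Of 26 compared genes of disease-associated microglia, the programme to which Lpl itself belongs, 11 were called higher and 1 lower, with a median of 0.48, which was 1.22 at 5000 to 15000 UMIs and 0.37 above. Cst7, a cysteine protease inhibitor, was at 583 against 249 CPM and Cd9, a tetraspanin, at 3243 against 1483 CPM. Trem2, a lipid-sensing receptor, was at 3001 against 1786 CPM, and its partner Tyrobp at 6364 against 4013 CPM. Spp1, which encodes osteopontin, was at 19122 against 10198 CPM. Apoe, the most abundant of these, was not called, at 80730.5 against 107293 CPM, and neither was Gpnmb, at 995 against 1713 CPM. The list's summed level, which Apoe dominates, had a median of 183232 CPM against 202549 CPM, so that the genes called higher did not carry the sum with them.

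Of 9 compared genes of border-associated macrophages 2 were called higher, Pf4 and Folr2, and 2 lower, Ms4a7 and Stab1, while Mrc1, Cd163, F13a1 and Cbr2 were at 0 as given above. Pf4, which encodes platelet factor 4, was at 519 against 196 CPM, and Folr2, a folate receptor, at 50.6 against 24.6 CPM. Of 7 compared monocyte genes 3 were called lower and none higher. The chemokine receptor Ccr2 had 0 UMIs against 44, at least 11.9-fold lower, the integrin chain Itga4 was at 13.6 against 63.2 CPM, and S100a6 at 7.55 against 63.9 CPM.

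**Figure D3:**
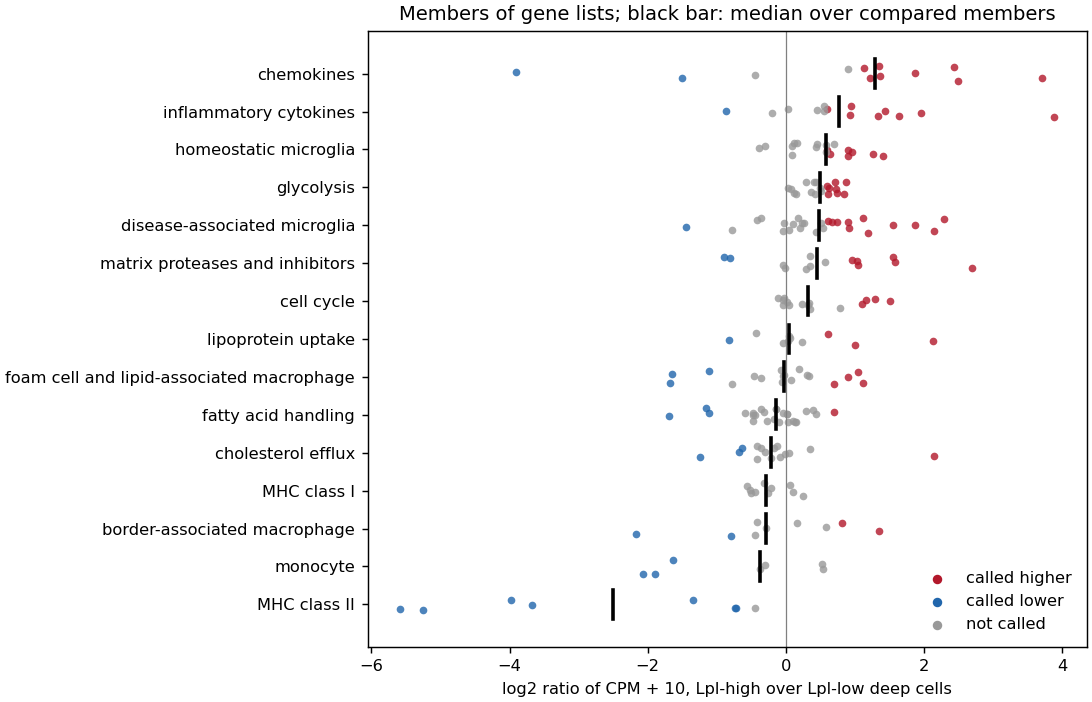
Log2 ratio of CPM + 10, Lpl-high over Lpl-low deep cells (horizontal), of the compared members of 15 gene lists (vertical), 1 point per gene, coloured by call; black bars are list medians. The medians run from -2.51 for MHC class II to 1.29 for chemokines, and the 4 lipid lists lie between -0.22 and 0.05.

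With Lpl left out, median ratios of the lipid lists were small, while summed levels per cell differed in both directions, with overlapping ranges. For lipoprotein uptake the median sum was 4327 CPM against 2512 CPM, and 38 of the 53 Lpl-high cells lay above the Lpl-low median. For foam cell and lipid-associated macrophage genes it was 30808 against 22067 CPM (39 of 53). Fatty acid genes had 2126 against 2463 CPM (21 of 53), and cholesterol efflux genes 82857 against 113433 CPM (14 of 53). Of 10 compared genes of lipoprotein uptake 3 were called higher and 1 lower, with a median of 0.05. The higher ones were all scavenger receptors: Olr1, which takes up oxidised low-density lipoprotein, was at 90.6 against 12.9 CPM, Msr1 at 137 against 63.9 CPM and Scarb1 at 17.4 against 7.98 CPM. Angptl4, a secreted inhibitor of lipoprotein lipase, was the lower one, with 3 UMIs against 19. The scavenger receptor Cd36 was not called, at 10.6 against 11.1 CPM.

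Of 26 compared fatty acid genes 1 was called higher and 3 lower, with a median of -0.15. The fatty acid carriers Fabp5 and Fabp4 were at 905 against 1969 CPM and at 9.82 against 54.0 CPM, and 3 cells held 72.7% of the Lpl-low Fabp4 UMIs. The desaturase Scd2 was the higher one, at 133 against 78.0 CPM. Plin2, the coat protein of lipid droplets, was not called, at 397 against 604 CPM. Fabp4 and the lipase Mgll, the other lower gene, had log2 ratios of 0.52 and 0.52 at 5000 to 15000 UMIs, where Lpl-high UMIs of these scarce genes were few.

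Of 15 compared genes of cholesterol efflux 1 was called higher and 3 lower, with a median of -0.22. Ch25h, which makes 25-hydroxycholesterol, was 10.7-fold higher (5.33 to 24.2) and was seen in 30 of 53 and 7 of 91 cells. It was compared through its share of Lpl-high cells alone. The exporters Abca1 and Abcg1 were not called, at 480.2 against 542 CPM and 179 against 222 CPM. The phospholipid transfer protein Pltp was at 150.3 against 367 CPM, and Npc1, which moves cholesterol out of lysosomes, at 64.9 against 107 CPM. Of 18 compared genes of foam cells and lipid-associated macrophages 4 were called higher and 3 lower, with a median of -0.03, which was 0.34 and -0.06 in the shallower and deeper range.

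Fibronectin, the matrix protein the series is about, was among the genes called higher. Fn1 was at 1778 CPM (1707 to 1851) in the Lpl-high and 631 CPM (593 to 671) in the Lpl-low cells, 2.82-fold higher (2.62 to 3.03), and it lies at chr1:71585520-71653200. Over cells it ran from 112 to 9377 CPM with a median of 1390.3, against 0 to 4076 CPM with a median of 315. It was seen in all 53 Lpl-high and 76 of 91 Lpl-low cells, and 47 Lpl-high cells lay above the Lpl-low median. Its log2 ratio was 1.99 at 5000 to 15000 UMIs and 1.51 above, so it was higher in both depth ranges.

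Of 11 compared matrix genes 4 were called higher, Fn1, Spp1, Sparc and Postn, and 3 lower, Thbs1, Tgfbi and Fgl2. Thbs1, which encodes thrombospondin 1, was at 13.6 against 67.5 CPM. Of 10 compared integrin genes the 2 chains of complement receptor 3, Itgam and Itgb2, were called higher, at 218 against 83.5 CPM and 289 against 160.3 CPM. Itga4, a chain of fibronectin-binding integrins, was called lower as given above. Itga5, the classical fibronectin receptor chain, was not called, although its summed level was higher, at 28.7 CPM (20.3 to 39.4) against 13.5 CPM (8.47 to 20.5). A call also needed the fold in the mean over cells.

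Of 14 compared matrix proteases and inhibitors 6 were called higher and 2 lower, with a median of 0.46, which was 0.98 at 5000 to 15000 UMIs and 0.36 above. Serpine2, an inhibitor of thrombin and plasminogen activators, was at 914 against 305 CPM, seen in 52 of 53 and 61 of 91 cells, and Plau, the urokinase it can inhibit, at 263 against 81.1 CPM. Adamts1, a secreted protease, was 17.7-fold higher (8.68 to 41.9) on 115 against 8 UMIs, and its log2 ratio at 5000 to 15000 UMIs was -0.37. Mmp12, macrophage elastase, was at 209 against 96.4 CPM, with 97.5% of its Lpl-low UMIs in 3 cells.

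Genes of glycolysis were higher in number and modest in size. Of 19 compared 8 were called higher and none lower, and the median was 0.49. They were the glucose transporter Slc2a1, the enzymes Hk3, Gapdh, Eno1, Pgk1, Pkm and Ldha, and Slc16a3, which exports lactate. Ldha, which makes lactate, was at 485 against 286 CPM, and Slc16a3 at 122 against 62.0 CPM. Of 35 nuclear genes of oxidative phosphorylation none was called, with a median of 0.11.

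Of 23 genes of lysosomal membrane and acidification none was called higher and 1 lower, Atp6v0d2, a proton pump subunit, at 18.1 against 78.0 CPM. Of 24 lysosomal hydrolases 2 were called higher and 1 lower, Acp5; Gusb, which cuts glucuronides, was at 784 against 469 CPM. The median of the hydrolases was 0.70 at 5000 to 15000 UMIs and 0.11 above. Their summed level had a median of 15184 CPM against 12837 CPM, and 43 of the 53 Lpl-high cells lay above the Lpl-low median. The protease gene Ctsd was not called, at 17078 against 11721 CPM. Of 21 compared genes of the actin cytoskeleton 4 were called higher and 1 lower; Myo1e, a motor protein of phagocytic cups, was at 427 against 167 CPM, and Tmsb4x, which binds free actin, at 20172 against 11922 CPM.

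Of 15 compared cell cycle genes 4 were called higher, Mki67, Stmn1, Tyms and Rrm1, with a median of 0.32. That median was 1.45 at 5000 to 15000 UMIs and 0.03 above. The summed level per cell over all 23 listed genes had a lower median, at 967 CPM against 1044 CPM. Of the 53 Lpl-high cells 22 lay above the Lpl-low median. Mki67, a protein of proliferating nuclei, was at 139 against 42.4 CPM, and 3 cells held 71.7% of its Lpl-high and 92.8% of its Lpl-low UMIs. UMIs of at least 3 of 10 mitotic genes were found in 7 of 53 Lpl-high cells (13.2%, interval 5.48 to 25.3) and in 2 of 91 Lpl-low cells (2.2%, 0.267 to 7.71), and after thinning in 5 and 1. The difference in cell cycle genes thus rests on few cells.

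The Lpl-high cells were not uniform. Tnf, Cxcl1, Cxcl2, Tnfsf9 and Il1a, 5 genes chosen after their values were seen, were used to count how many of them had a UMI in each cell. At least 4 of the 5 were seen in 21 Lpl-high cells (39.6%, interval 26.5 to 54), 2 or 3 in 10 cells, and at most 1 in 22 cells (41.5%, 28.1 to 55.9). Among Lpl-low cells the first kind numbered 3 of 91 (3.3%, 0.685 to 9.33) and the last 65 of 91 (71.4%, 61 to 80.4). Thinned to 5000 UMIs, at least 4 of the 5 were seen in 13 of 53 and 1 of 91 cells, and at most 1 in 26 and 80. These genes were chosen because they were high in the Lpl-high cells, so the counts by group restate that choice. The summed CPM of the 5 genes had a rank correlation with depth of 0.188 over the 53 Lpl-high cells, given as a description. This sum is scaled to depth, whereas the number of genes with a UMI can rise with depth, and its correlation is not given here.

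The kinds differed in depth and in other inflammatory genes. The 21 cells with at least 4 genes had 6546 to 53972 UMIs with a median of 29624, and the 22 cells with at most 1 had 5285 to 39272 with a median of 22476. Median Lpl was 1983 and 1452 CPM. Nfkbia, which was not used in the count, had a median of 2749.8 CPM in the first and 237 CPM in the second, and Il1b 2291 and 0 CPM. The immediate early genes Fos and Jun had medians of 1686 and 709 CPM against 559 and 177 CPM. The part of depth and of these immediate early genes in the division was not tested.

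Among other genes named as highest, Gpr84 had a median of 99.0 CPM in the 21 cells and 12.7 CPM in the 22, and Icam1 458 and 39.3 CPM. The medians of Ank, Serpine2 and Fn1 lay closer together. Ank had a median of 177 CPM in the 21 cells and 171 CPM in the 22, Serpine2 887 and 603 CPM, and Fn1 1390.3 and 1069 CPM, with overlapping ranges for each. Ccl3, though a chemokine, had medians of 81.2 and 154 CPM. Fn1 was highest in the 10 cells with 2 or 3 of the genes, at a median of 3843 CPM. Of the 7 cells with at least 3 mitotic genes, 5 had at least 4 of the 5 inflammatory genes. The 7 had a median of 33904 UMIs against 24840 in the other 46 cells, and a median Lpl of 1509 against 1782 CPM.

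**Figure D4:**
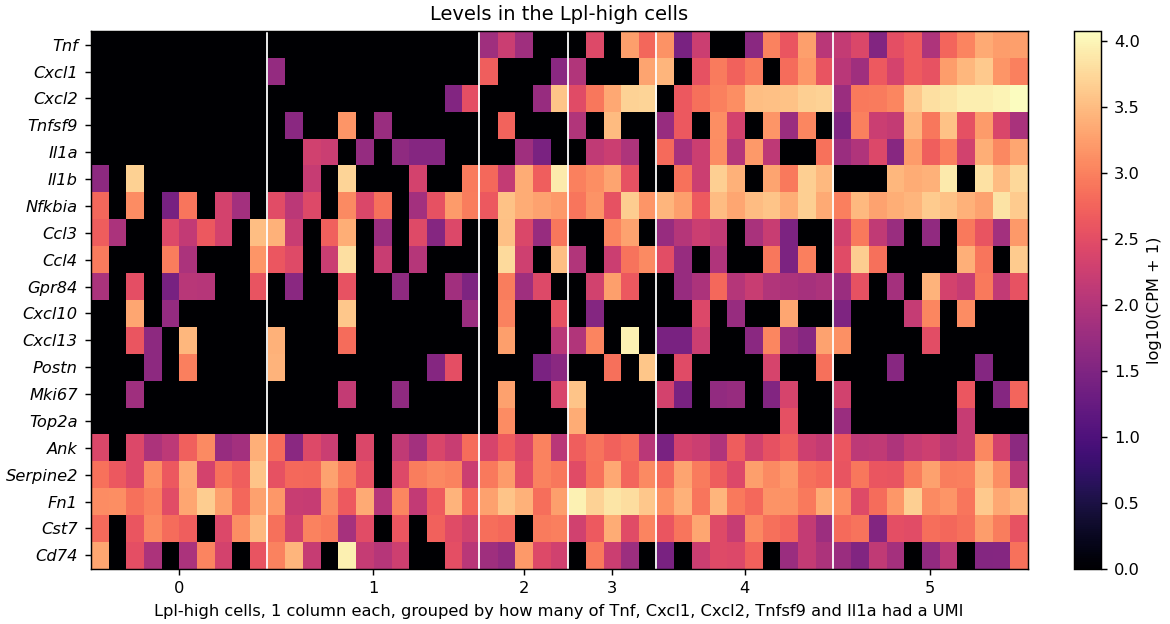
Log10(CPM + 1) of 20 genes (rows) in the 53 Lpl-high cells (columns), ordered by how many of Tnf, Cxcl1, Cxcl2, Tnfsf9 and Il1a had a UMI, from 0 to 5, with white lines between these counts. The first 22 columns have at most 1 and the last 21 at least 4 of the genes, while Ank, Serpine2 and Fn1 are seen in nearly all columns.

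Genes of the Y chromosome, which show male origin, had UMIs in 44 of 53 Lpl-high and 70 of 91 Lpl-low cells. Xist, which female cells transcribe, had 0 UMIs in all 778 cells, although the labels give mice of both sexes. How the sexes contributed to the 2 groups therefore cannot be told apart from these data.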

How the data were processed

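Cells of digested optic nerve were captured with 10x Genomics 3' chemistry in 1 injured and 1 uninjured library, per the labels' protocols. The authors deposited raw UMI counts as whole numbers, genes by cells, for the 778 macrophages and microglia that had 200 to 6500 genes; these counts are not normalized. Cell Ranger 1.3, Seurat 4.0.3 and the mm10 build are named in the submitters' processing notes. The sources used here do not give how macrophages and microglia were picked from all cells. No cell barcode was shared between the libraries (0 shared).

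Counts were summed over cells and scaled to CPM. Before log2 ratios were taken, 10 CPM were added to both levels, so scarce genes are drawn toward no difference. Intervals are exact: conditional binomial for ratios, Poisson for levels and Clopper-Pearson for shares; UMIs of 1 cell are not independent of each other, so the spread between cells is wider than these intervals. For thinned shares each cell was drawn down to 5000 UMIs. A count of 0 allows 2.27 CPM in the Lpl-high and 1.84 CPM in the Lpl-low cells (3 counts over the group). Named were the 20 highest and 20 lowest called genes with at least 100 CPM in either group, without mitochondrial, ribosomal, predicted, sex-linked and haemoglobin genes, and up to 4 members of each of the lists of phagocyte genes (up to 2 for other cell types) with the largest ratios; further genes were chosen after their values were seen. The members and lists were chosen with earlier results of these data known. Clec7a, and 26 rows whose names a spreadsheet turned into dates, were not analysed here, and not every gene named by this rule is reported here. Positions are from GENCODE vM21 and promoters from RefSeq. No doublets were removed, and free RNA was not measured, since no cell type that lacks these genes was present in number. Computed with numpy, scipy and pandas in Python.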

Additional observations from a re-analysis of the deposited data

How the results depend on the processing

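The 351 genes called higher and 414 called lower were recomputed under 22 other settings, 4 of them chosen after seeing the data. The counts moved by over 1.5 times under these: 828 and 1071 with a pseudocount of 1 CPM, 134 and 68 with 50 CPM, 1919 and 2215 at 5000 to 15000 UMIs, where the Lpl-high group has 9 cells, and 692 and 925 with every cell thinned to 5000 UMIs, where Lpl was read from the thinned counts and 136 of 144 cells kept their group. The lower count alone moved to 713 with equal cell weights, 785 with totals that leave out mitochondrial, ribosomal protein and the 20 most abundant genes, and 273 for genes seen in 25% of cells. In thinned cells 219 of the 351 and 208 of the 414 genes were called in the same direction.

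The MHC class II median stayed below 0 under all 22 settings. It was -3.87 and -2.00 with the pseudocounts of 1 and 50 CPM, -3.82 for genes seen in 25% of cells, -3.86 in thinned cells and -1.44 without the cells of over 3% class II UMIs. The chemokine median stayed above 0 under all 22. It was 0.76 and 1.06 with Lpl limits of 250 and 1000 CPM and 0.85 without the 5 deepest cells of each group. At 5000 to 15000 UMIs it was 0.48 over the members seen in 10% of those cells, beside 0.76 over all 12. Over 15000 UMIs it was 1.55. It was 0.95 in cells with a Y gene UMI, 1.58 without cells with macrophage or monocyte genes and 0.94 without cells with mitotic genes. The cytokine median turned to -0.28 at 5000 to 15000 UMIs, over the members seen in 10% of those cells, and stayed above 0 under the other 21. The homeostatic microglia and glycolysis medians stayed above 0 under all 22, and the first was lower in thinned cells, at 0.37. Their shifts lay within the counting interval of a typical single member, which is not an interval for the list median.

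Log2 ratios of called genes changed sign at 5000 to 15000 UMIs for Cxcl2 (-0.93), Phlda1 (-0.68), Sdc4 (-0.16), Nfkbia (-0.81), Nlrp3 (-0.68), Nfkbiz (-0.76), Ptgs2 (-2.14), Adamts1 (-0.37), Fabp4 (0.52), Mgll (0.52), Klf2 (0.47) and Serpinb6a (0.24). Without the 2 shallow Lpl-low cells richest in Cxcl2, Cxcl2 was at 2.07, and Nfkbia (-0.38), Nfkbiz (-0.55), Nlrp3 (-0.55) and Ptgs2 (-2.19) stayed negative. Signs also changed in thinned cells for P2ry12 (-0.18) and Sall1 (-0.30). Without cells with macrophage or monocyte genes they changed for Ighm (0.095) and Ccl12 (0.28). Without the cells rich in class II the sign changed for H2-DMb1 (0.087). The cause was not tested. Alternatives restricted to cells with Xist or leaving out cells with both Xist and a Y gene were not run, since no cell had Xist. The lower depth range has 9 Lpl-high and 36 Lpl-low cells. No paired analysis was possible because both groups are cells of the 1 injured library and no test was made.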
